A study of Homo sapiens with 6 samples.

Results

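The 78 genes described here encode the proteins of the mitochondrial ribosome that carry ribosomal protein names: 49 named for the large subunit (MRPL) and 29 named for the small subunit (MRPS). They were chosen by symbol, as every protein-coding gene named MRPL or MRPS plus a number, with or without a letter, and not by any measured value, from the 61806 genes of the table. RNA was sequenced from HK2 cells, an immortalised human proximal tubule line, taken 48 hours after transfection of a plasmid for FLAG-tagged VMP1, a transmembrane protein of the endoplasmic reticulum that acts in autophagosome formation. There were 3 libraries of total cell lysate, named positive controls by the submitters, and 3 of RNA recovered with anti-FLAG beads (RNA immunoprecipitation, here IP 1, 2 and 3). Both groups carry the construct, so the comparison asks which RNA was recovered with the tagged protein relative to the RNA of the whole cell. An immunoprecipitate from cells without the construct was not analysed here, so RNA held by the tagged protein and RNA held by the beads cannot be told apart. Nothing in the labels ties the 3 libraries of a group to separate cultures, and p-values then measure only the spread between these libraries, which may be technical.

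The mitochondrial ribosome sits in the mitochondrial matrix and makes the few membrane proteins of the respiratory chain and ATP synthase that mitochondrial DNA encodes. Its ribosomal RNAs are transcribed from mitochondrial DNA, while all of its proteins are nuclear gene products, made on cytosolic ribosomes and imported. Many of its proteins descend from bacterial ribosomal proteins, and many others are found in mitochondria alone. Proximal tubule cells depend on mitochondrial respiration to drive reabsorption. Names do not always give the place of a protein: MRPS18A (also mL66) and MRPS30 (mL65) are built into the large subunit, and MRPS36 is a component of the 2-oxoglutarate dehydrogenase complex rather than of the ribosome.

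Library totals ran from 54363555 to 92948069 counts. Levels are given as CPM scaled by the trimmed mean of M values, and FPKM is used wherever 2 genes are compared, since it divides by length. The library labelled IP 2 stood apart from the other immunoprecipitates. VMP1 itself had 297, 301 and 306 CPM in the lysates and 2347, 274 and 2685 CPM in IP 1, 2 and 3, so that IP 2 alone held no excess of the tagged gene's RNA. Of 12 epithelial markers, 9 reached 1 CPM in the lysates and LRP2 had no count in any library, and their summed level was 1725 to 1810 CPM in the lysates and 829, 2071 and 852 CPM in IP 1, 2 and 3. The summed level of 10 fibroblast markers was 290.1 to 315 CPM in the lysates and 65.4, 899 and 74.8 CPM in the immunoprecipitates. In IP 2 that sum was carried by LOX (551 CPM), COL1A1 (148 CPM) and COL1A2 (125 CPM), and LUM was at 18.0 CPM, below the 83.4 to 91.3 CPM of the lysates. DCN and COL3A1 were within the range of the lysates. The summed levels of 8 neutrophil, 4 endothelial and 4 leukocyte markers were within or below the range of the lysates in every immunoprecipitate. Neutrophil markers summed to 301 to 525 CPM in the lysates and 97.9, 360 and 11.5 CPM in IP 1, 2 and 3. Leukocyte markers summed to 113 to 173 CPM against 53.7, 137 and 16.9 CPM, and endothelial ones to 17.7 to 31.4 CPM against 6.88, 24.4 and 2.91 CPM. The source of this RNA in libraries of a tubule line was not tested. The tubule transcription factor PAX8 had 283 to 315 CPM in the lysates and 66.1 CPM in IP 2. The part of this library in the results was not tested, so the counts over the family and its medians are given with all 6 libraries and without IP 2. With all 6, edgeR called no gene of the family.

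All 78 genes passed the expression filter, and with all 6 libraries none was called. A gene is called higher or lower at an adjusted p of 0.05 in edgeR's quasi-likelihood test over 20593 genes. With all 6 libraries 0 of the 78 were called higher, where 0.16% of all tested genes were, and 0 were called lower, against 0.5%. Of the 78, 11 had an unadjusted p under 0.05, beside 21.3% of all tested genes. DESeq2 on the same counts called MRPL3 and MRPL19 lower and MRPS17 higher, where it called 4.22% of all genes lower and 6.74% higher. Without IP 2 edgeR called 41 of the 78 lower and 10 higher. Over all tested genes it then called 27.2% lower and 23.9% higher, and the share of these 78 was 52.6% lower and 12.8% higher. All 51 of these calls were made by DESeq2 in the same direction, which called 44 lower and 10 higher without IP 2, where it called 25.9% of all genes lower and 22.7% higher.

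Promoter motifs, which the rule did not use, were counted in the family, and most of its windows lacked each of them. RefSeq starts (GRCh38.p14) were found for 69 of the 78 genes, with 85 windows of 250 bases before to 50 after the start, and 3 motifs were searched on both strands. AAGATGG, the letters of a site of the factor YY1, was in 31.8% of the family's windows. It was in 6.499% of those of tested protein-coding genes and 5.84% of all windows. CCGGAAG, a site of the ETS family, which includes the respiratory-gene regulator GABPA, was in 38.8%, against 15.2% and 10.3%. GCATGCGC, the core of the site of NRF1, was in 7.06%, against 4.25% and 3.05%. CCGGAAG and AAGATGG can share the letters AAG where one runs into the other. AAGATGG also holds ATG, the letters of a start codon, and whether these begin the protein was not tested. Only letters were matched, and binding of a factor was not measured. In 17 of the 85 windows (20%) AAGATGG lay after the start and read in the gene's own direction, against 2.68% of the windows of tested coding genes. The following 8 windows show this position, 10 bases each side of the motif, with the motif in capitals. They are printed because genes that were called lower (MRPL11, MRPS18A, MRPS18B and MRPS24), higher (MRPL42) or not called without IP 2 (MRPL46, MRPS10 and MRPS30) all hold it.
MRPL11, chr11:66438808-66438834, minus strand: cctctggcccAAGATGGtggcgcccag
MRPL42, chr12:93467512-93467538, plus strand: ggattgaaacAAGATGGcgggttcgtg
MRPL46, chr15:88467364-88467390, minus strand: gggagaacgaAAGATGGcggcgcccgt
MRPS10, chr6:42217836-42217862, minus strand: cgggaccggcAAGATGGcggcgcggac
MRPS18A, chr6:43687766-43687792, minus strand: taggtttttgAAGATGGcggccctcaa
MRPS18B, chr6:30617853-30617879, plus strand: ggcgtacgtcAAGATGGcggcgtctgt
MRPS24, chr7:43869482-43869508, minus strand: cgcttggcccAAGATGGcggcctccgt
MRPS30, chr5:44808950-44808976, plus strand: atcgcgggcaAAGATGGcggcggccag

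The ETS site is shown in 6 windows of the same design, for genes that were called lower without IP 2 and for the level gene MRPS10; MRPS10, MRPS12 and MRPS18A hold both motifs.
MRPL3, chr3:131502987-131503013, minus strand: gtaaaacgcaCCGGAAGtgggtccggc
MRPL40, chr22:19432524-19432550, plus strand: gggcgcacgcCCGGAAGcggcgagggt
MRPL43, chr10:100987499-100987525, minus strand: cgtcccggaaCCGGAAGcctcgaggtt
MRPS10, chr6:42217867-42217893, minus strand: cgctgtaaccCCGGAAGcaatcctgag
MRPS12, chr19:38930929-38930955, plus strand: cggatagcgcCCGGAAGaggctagaag
MRPS18A, chr6:43687806-43687832, minus strand: gcgctacgttCCGGAAGcggaaatgga

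The fold changes of genes with and without a motif lay close together. Without IP 2 the median log2 fold change was −0.51 over 24 genes with AAGATGG and −0.60 over 45 without, −0.63 over 30 genes with CCGGAAG and −0.51 over 39 without, and −0.42 over 6 genes with GCATGCGC and −0.56 over 63 without. Over all 6 libraries these medians were −0.10 and −0.18, −0.22 and −0.13, and −0.11 and −0.16.

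By its median gene the family sat lower in IP 1 and IP 3 and slightly higher in IP 2. The median log2 ratio to the lysate mean was −0.58 in IP 1, 0.24 in IP 2 and −0.57 in IP 3, while over all tested genes it was −0.057, −0.022 and −0.19. Each of IP 1 and IP 3 had 61 of the 78 genes below their lysate mean and IP 2 had 24. Lysates 1, 2 and 3 had 64, 31 and 18, so this count does not set IP 1 and IP 3 apart from lysate 1. The median log2 ratio of lysate 1 was only −0.092 over the large and −0.050 over the small subunit. Both IP 1 and IP 3 were below all 3 lysates for 51 genes (38.3% of all genes tested without IP 2) and above them for 12 (32.8%). IP 2 was the highest of the 6 libraries for 45 of the 78, against 28.5% of all tested genes. In all, 9 genes were below every lysate in all 3 immunoprecipitates and 6 above, against 17.7% and 13.4% of all tested genes. The median log2 fold change was −0.17 over all 6 libraries and −0.58 without IP 2, beside 0.056 and −0.063 over all tested genes. As CPM of the unscaled library total, the counts of the family summed to 2466, 2542 and 2625 in the lysates and 2149, 2958 and 2207 in IP 1, 2 and 3. That is 2544 ± 79.3 (SD, n = 3) against 2438 ± 451 (SD, n = 3), with IP 2 above every lysate and IP 1 and IP 3 below.

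**Figure D1:**
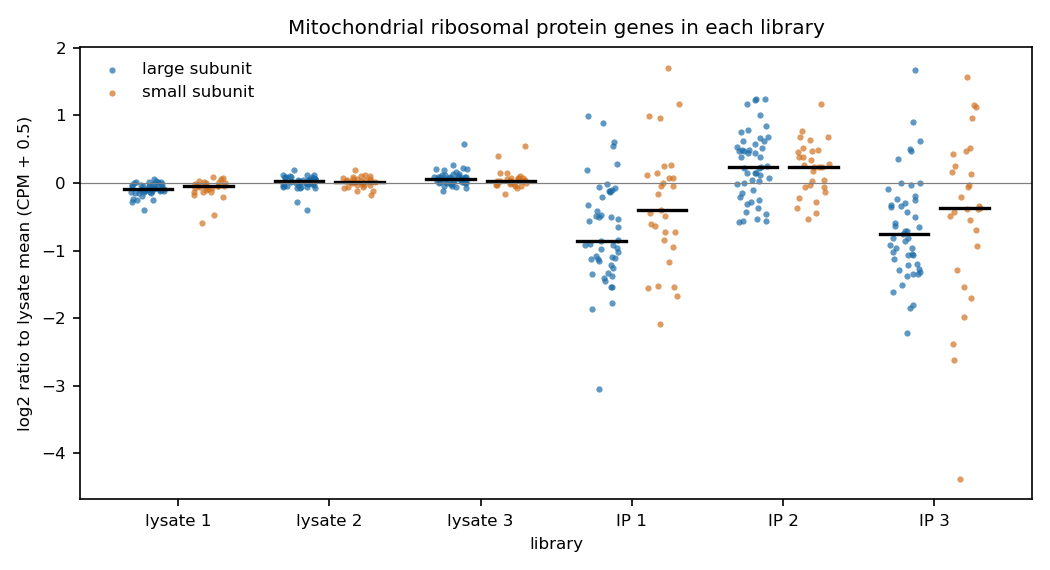
Log2 ratio of each gene's CPM to its lysate mean (0.5 CPM added to both) in every library, 1 point per gene, with the 49 large-subunit genes (by name) in blue and the 29 small-subunit genes in orange; the bar is the median. The medians of IP 1 and IP 3 lie below 0, at −0.85 and −0.76 for the large and −0.41 and −0.37 for the small subunit, while those of IP 2 are both 0.24.

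Genes of the large subunit lay lower than those of the small subunit in IP 1 and IP 3. In IP 1 the median log2 ratio to the lysate mean was −0.85 over the large and −0.41 over the small subunit, and in IP 3 it was −0.76 and −0.37. In IP 2 both medians were 0.24. With all 6 libraries the median log2 fold change was −0.20 for the large and −0.057 for the small subunit, a difference of −0.15, and without IP 2 it was −0.83 and −0.35, a difference of −0.48. The difference was −0.024 without IP 3, and −0.30, −0.32 and −0.34 with all 6 libraries in limma on log2(FPKM + 1), in limma on log2(FPKM + 0.1) and with the replicate number as a block in edgeR. Without IP 2 edgeR called 29 of 49 large-subunit genes lower and 4 higher, and 12 of 29 small-subunit genes lower and 6 higher. That is 59.2% lower and 8.16% higher in the large and 41.4% and 20.7% in the small subunit, beside the 27.2% lower and 23.9% higher of all tested genes. Placing MRPS18A and MRPS30 in the large subunit and leaving out MRPS36 gave 30 of 51 lower and 4 higher against 11 of 26 lower and 6 higher. No test was made of the difference between the subunits, whose genes are not replicates. Descent from a bacterial protein split the family less than the subunit did: without IP 2 the median was −0.73 over the 48 genes with a bacterial homologue and −0.53 over the 30 without.

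In the sums over all counts the large subunit was lower in IP 1 and IP 3 and the small subunit was not. Over protein-coding transcripts alone both subunits were lower there. Large-subunit CPM summed to 1562, 1684 and 1708 in the lysates and 977, 1849 and 1018 in IP 1, 2 and 3. Small-subunit CPM summed to 962, 1032 and 1065 in the lysates and 987, 1189 and 1029 in IP 1, 2 and 3. Per unscaled library total the small-subunit sums were 940, 966 and 1008 against 1080, 1157 and 1110. The ratio of all large-subunit counts to all small-subunit counts was 1.623, 1.632 and 1.604 in the lysates (1.62 ± 0.015, SD, n = 3) and 0.990, 1.56 and 0.989 in IP 1, 2 and 3. All 3 immunoprecipitates were below all 3 lysates, IP 2 by little and IP 1 and IP 3 by far more than the lysates differ among themselves. Per length, the ratio of median FPKM was 1.25, 1.51 and 1.41 in the lysates. In IP 1, 2 and 3 it was 1.08, 1.44 and 1.05. There IP 2 lay among the lysates, and IP 1 and IP 3 lay below them by less than the lysates differ among themselves. A few genes carried part of the fall in the ratio of summed counts. Leaving out MRPS5, MRPS25 and MRPL3, the ratio was 1.52, 1.53 and 1.55 in the lysates and 1.23, 1.56 and 1.18 in the immunoprecipitates, so that IP 2 then lay above every lysate. Counting only transcripts annotated as protein-coding, it was 1.76, 1.83 and 1.84 against 1.34, 1.68 and 1.32. By that count the small-subunit sums were 824, 866 and 873 CPM in the lysates. They were 630, 1025 and 692 CPM in IP 1, 2 and 3, so IP 1 and IP 3 were below every lysate.

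**Figure D2:**
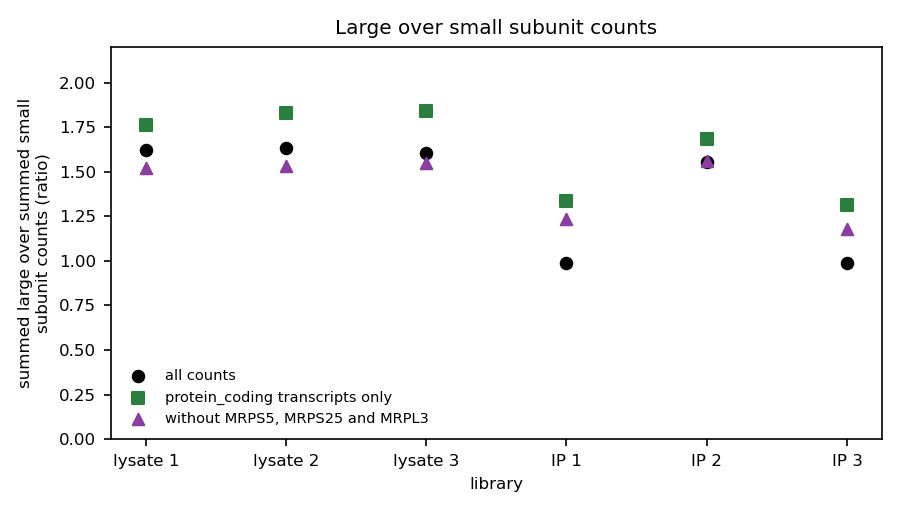
Ratio of summed counts of the large-subunit genes to those of the small-subunit genes in each library, over all counts and over the other sets of genes or transcripts named in the key. IP 1 and IP 3 lie near 0.99 over all counts and lysates near 1.62; IP 2 lies at 1.56.

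Among the most abundant large-subunit messages in the lysates per length were MRPL3, at 78.5 ± 2.87 FPKM (SD, n = 3), MRPL37 at 38.8 ± 2.28 FPKM, MRPL12 at 32.2 ± 4.96 FPKM and MRPL18 at 29.9 ± 1.12 FPKM. MRPL3 (ENSG00000114686, chr3:131462212-131502983, minus strand), in the build GRCh38.p14 as are all positions here, encodes uL3m, a core protein that binds ribosomal RNA early in assembly. MRPL3 had 219.5, 243 and 242 CPM in lysates 1, 2 and 3 and 80.2, 159.7 and 90.7 CPM in IP 1, 2 and 3. Every immunoprecipitate was below every lysate, IP 2 the nearest. Its log2 fold change was −1.09 ± 0.30 (SE) with all 6 libraries (edgeR adjusted p = 0.130) and −1.45 ± 0.08 without IP 2 (adjusted p = 2.82e-05). MRPL37 (ENSG00000116221, chr1:54184041-54225464, plus strand) encodes a protein specific to mitochondria, and had 99.9, 111 and 116 CPM in lysates 1, 2 and 3 and 31.3, 109 and 30.9 CPM in IP 1, 2 and 3. IP 2 lay among the lysates and the other two immunoprecipitates far below them. For MRPL37 edgeR gave −1.80 ± 0.079 without IP 2 (adjusted p = 1.41e-05) and −0.94 ± 0.53 with it (adjusted p = 0.354). MRPL18, a protein of the central protuberance, had 44.7, 47.6 and 43.8 CPM in the lysates against 32.4, 46.7 and 45.2 CPM in IP 1, 2 and 3, and no difference passed the test (−0.21 ± 0.15 without IP 2, edgeR adjusted p = 0.279).

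The stalk of the large subunit, which draws translation factors to the ribosome, is built on MRPL10, MRPL11 and MRPL12, the last of which also binds the mitochondrial RNA polymerase. All 3 were called lower without IP 2 and none with it. MRPL10 had 41.6, 46.1 and 46.8 CPM in the lysates against 16.6, 36.9 and 17.3 CPM in IP 1, 2 and 3, and all immunoprecipitates were below all lysates. MRPL12 had 29.5, 36.6 and 41.6 CPM in the lysates against 13.5, 31.1 and 13.8 CPM in IP 1, 2 and 3, with IP 2 inside the range of the lysates. MRPL11 had 23.9, 27.7 and 32.9 CPM in the lysates against 7.40, 67.5 and 7.45 CPM in IP 1, 2 and 3. For MRPL11 the libraries split both ways, with IP 2 far above every lysate and IP 1 and IP 3 far below. Without IP 2 the log2 fold changes were −1.39 ± 0.087, −1.38 ± 0.15 and −1.91 ± 0.16 for MRPL10, MRPL12 and MRPL11 (edgeR adjusted p = 4.46e-05, 0.000527 and 0.000171). With all 6 libraries that of MRPL11 was −0.038 ± 0.89 (adjusted p = 0.985). Those of MRPL10 and MRPL12 were −0.93 ± 0.35 and −0.89 ± 0.38 (adjusted p = 0.209 and 0.253).

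In all, 8 of 49 large-subunit genes and 1 small-subunit gene were below every lysate in all 3 immunoprecipitates, IP 2 included, where 17.7% of all tested genes were. MRPL19 (ENSG00000115364, chr2:75646783-75670807, plus strand), whose bacterial counterpart lies where the subunits meet, had 76.9, 81.1 and 70.3 CPM in the lysates against 35.3, 51.2 and 34.5 CPM in IP 1, 2 and 3. Its log2 fold change was −0.92 ± 0.22 with all 6 libraries (edgeR adjusted p = 0.108; DESeq2 0.029) and −1.11 ± 0.082 without IP 2 (adjusted p = 8.80e-05). MRPL14, which forms a bridge between the subunits, had 28.5, 31.02 and 32.3 CPM in the lysates against 19.3, 22.6 and 14.9 CPM in IP 1, 2 and 3. MRPL23, at the rim of the exit tunnel for new chains, had 10.7, 12.96 and 14.9 CPM in the lysates against 5.08, 10.7 and 4.83 CPM in IP 1, 2 and 3, where IP 2 and the lowest lysate were nearly equal. MRPL43, a protein specific to mitochondria, had 42.03, 42.8 and 48.6 CPM in the lysates against 30.04, 29.6 and 25.02 CPM in IP 1, 2 and 3, and IP 2 was as low as IP 1. MRPL30 had 55.6, 60.4 and 54.3 CPM in the lysates against 31.2, 52.7 and 36.1 CPM in IP 1, 2 and 3, with IP 2 just under the lysates. Among the 4 genes from MRPL14 to MRPL30 the log2 fold change without IP 2 was −0.83 ± 0.14, −1.36 ± 0.20, −0.68 ± 0.11 and −0.74 ± 0.094, each called lower by edgeR (adjusted p = 0.00293, 0.00168, 0.00303 and 0.000946). With all 6 libraries it was −0.69 ± 0.22, −0.90 ± 0.39, −0.66 ± 0.17 and −0.51 ± 0.24 (adjusted p = 0.165, 0.253, 0.127 and 0.279).

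A smaller number of large-subunit genes went the other way. MRPL1 (ENSG00000169288, chr4:77862830-77952785, plus strand) encodes uL1m of the L1 stalk, where spent tRNA leaves, and had 8.39, 9.94 and 9.11 CPM in lysates 1, 2 and 3 and 18.7, 10.9 and 30.3 CPM in IP 1, 2 and 3. Every immunoprecipitate was above every lysate, IP 2 by little. Its log2 fold change was 1.44 ± 0.22 without IP 2 (edgeR adjusted p = 0.00220) and 1.13 ± 0.39 with all 6 libraries (adjusted p = 0.189). MRPL42 (ENSG00000198015, chr12:93467514-93516214, plus strand), a protein specific to mitochondria, had 59.5, 60.6 and 57.2 CPM in lysates 1, 2 and 3 and 109.9, 40.5 and 110.1 CPM in IP 1, 2 and 3. The lysates lay well below IP 1 and IP 3, and IP 2 was below all of them. The log2 fold change was 0.91 ± 0.059 without IP 2 (edgeR adjusted p = 5.09e-05) and 0.56 ± 0.39 with it (adjusted p = 0.446). MRPL52, of the central protuberance, had 10.5, 13.5 and 11.1 CPM in the lysates against 17.2, 19.95 and 16.4 CPM in IP 1, 2 and 3, with all immunoprecipitates above all lysates and IP 2 the highest (0.54 ± 0.15 without IP 2, edgeR adjusted p = 0.0246). With IP 2 MRPL52 was at 0.61 ± 0.22 (adjusted p = 0.197). MRPL33 was the other large-subunit gene called higher without IP 2, at 0.64 ± 0.086 (edgeR adjusted p = 0.00131). With IP 2 MRPL33 was at 0.41 ± 0.26 (adjusted p = 0.410). MRPL22, which lines the exit tunnel, had 13.3, 13.7 and 15.3 CPM in the lysates against 16.3, 19.99 and 18.3 CPM in IP 1, 2 and 3; the groups did not overlap, and the difference did not pass the test (0.30 ± 0.13 without IP 2, edgeR adjusted p = 0.105). MRPL22 and MRPL46 had the lowest levels per length of the large subunit, at 2.43 ± 0.161 FPKM and 1.17 ± 0.0570 FPKM.

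MRPL58 (ICT1), which frees peptides from stalled ribosomes and is also built into the large subunit, had 11.6, 12.7 and 13.3 CPM in the lysates against 11.3, 17.6 and 10.5 CPM in IP 1, 2 and 3. Both IP 1 and IP 3 were just under the lysates and IP 2 above them, and no difference passed the test (−0.18 ± 0.14 without IP 2, edgeR adjusted p = 0.325).

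**Figure D3:**
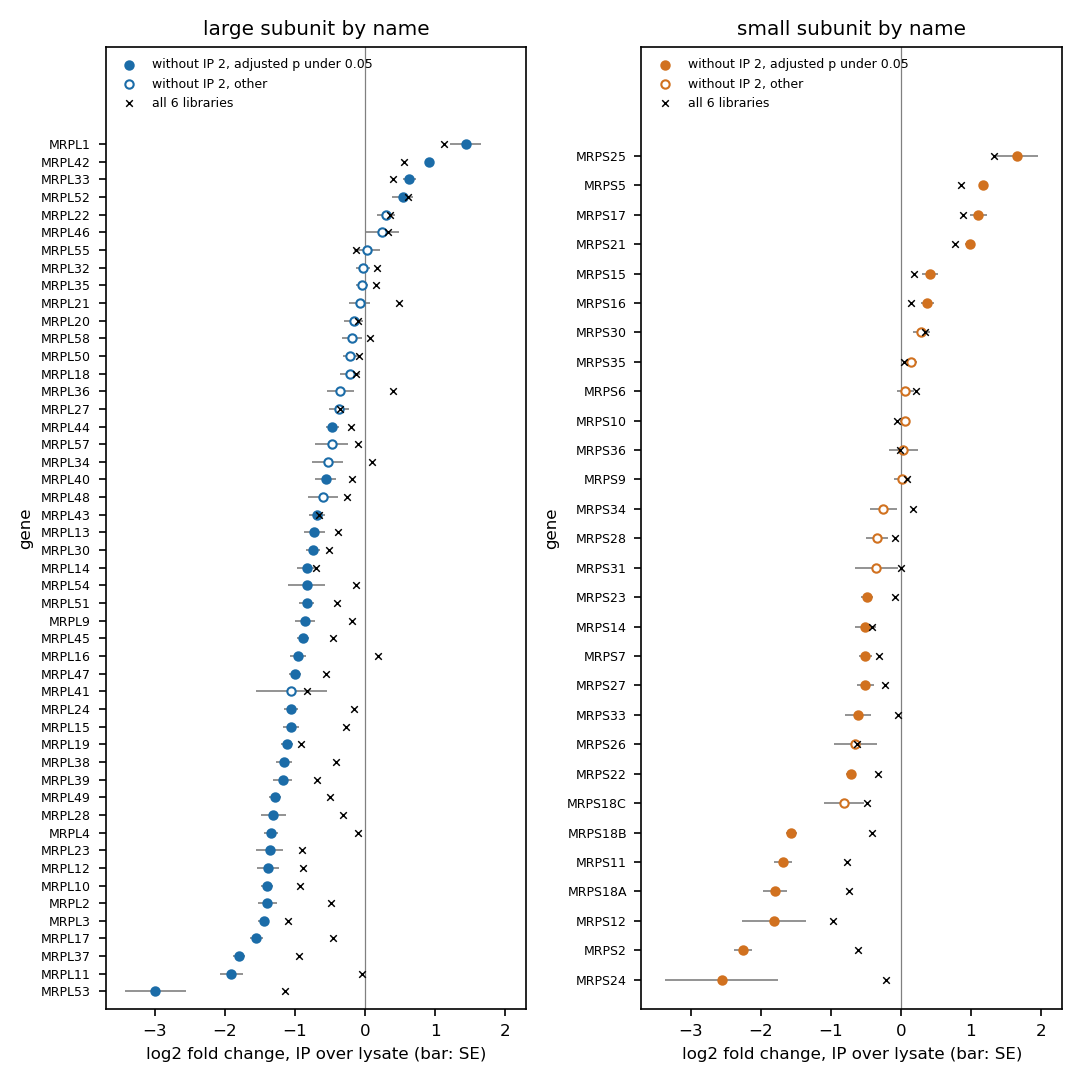
Log2 fold change of each of the 78 genes, immunoprecipitate over lysate, large subunit by name on the left and small subunit on the right: circles are the fit without IP 2 with their SE, filled where the edgeR adjusted p is under 0.05, and crosses are the fit with all 6 libraries. Most circles lie left of 0 in the large subunit (42 of 49) and 17 of 29 do in the small subunit. Of all 22062 genes tested without IP 2, 11474 lay below 0. With all 6 libraries none of the 78 was called.

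In the small subunit the most abundant messages per length were MRPS10 at 39.1 ± 1.04 FPKM, MRPS35 at 28.2 ± 1.31 FPKM, MRPS18B at 27.1 ± 1.11 FPKM and MRPS2 at 23.3 ± 2.04 FPKM. MRPS10 (ENSG00000048544, chr6:42206807-42217861, minus strand), a protein of the head, was nearly level, with 90.9, 90.99 and 89.4 CPM in lysates 1, 2 and 3 and 87.3, 74.4 and 99.1 CPM in IP 1, 2 and 3. IP 2 was the lowest and IP 3 the highest library, and the log2 fold change was 0.057 ± 0.075 without IP 2 and −0.057 ± 0.17 with it, neither passing edgeR's test (adjusted p = 0.568 and 0.873). MRPS35 was as level, with 59.9, 62.8 and 57.1 CPM in the lysates against 59.9, 54.3 and 71.001 CPM in IP 1, 2 and 3. The other two abundant genes were not. MRPS18B (ENSG00000204568, chr6:30617840-30626395, plus strand), which encodes mS40, had 50.7, 51.5 and 55.1 CPM in lysates 1, 2 and 3 and 17.4, 83.8 and 17.6 CPM in IP 1, 2 and 3, and MRPS2 (ENSG00000122140, chr9:135499984-135504673, plus strand) encodes uS2m and had 58.2, 62.5 and 70.5 CPM in lysates 1, 2 and 3 and 14.6, 99.2 and 11.9 CPM in IP 1, 2 and 3. In both, IP 2 was the highest of all libraries and IP 1 and IP 3 were below all lysates. Without IP 2 the log2 fold change was −1.57 ± 0.078 for MRPS18B and −2.26 ± 0.13 for MRPS2 (edgeR adjusted p = 2.04e-05 and 3.18e-05), and with it −0.40 ± 0.64 and −0.61 ± 0.82 (adjusted p = 0.748 and 0.703).

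MRPS24 (ENSG00000062582, chr7:43866558-43869893, minus strand), the counterpart of bacterial uS3 at the entry of the messenger RNA channel, had 29.3, 32.6 and 34.6 CPM in lysates 1, 2 and 3 and 9.79, 72.5 and 1.08 CPM in IP 1, 2 and 3. IP 1 was far above IP 3, a gap between them wider in ratio than for any of the other 77 genes, and IP 2 was far above every lysate. Its fold change without IP 2 was −2.56 ± 0.80 (edgeR adjusted p = 0.0381), with the largest SE among the 51 genes called. With IP 2 it was −0.21 ± 1.22 (adjusted p = 0.937). Some MRPS24 reads may belong to the read-through gene URGCP-MRPS24, which overlaps it on the same strand. MRPS12, of the decoding centre, had 16.8, 18.4 and 17.7 CPM in the lysates against 7.55, 16.9 and 2.44 CPM in IP 1, 2 and 3, with IP 2 among the lysates (−1.81 ± 0.45 without IP 2, edgeR adjusted p = 0.0169). With IP 2 it was −0.97 ± 0.65 (adjusted p = 0.427). MRPL53, the largest fall of the family without IP 2 at −2.99 ± 0.44 (edgeR adjusted p = 0.00179), had a mean under 10 CPM; it, MRPL33, MRPS11, MRPS15 and MRPS16 were named after their values were seen.

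The genes called higher in the small subunit without IP 2 were MRPS5, MRPS15, MRPS16, MRPS17, MRPS21 and MRPS25. MRPS5 (ENSG00000144029, chr2:95085369-95122006, minus strand), at the entry of the messenger RNA channel, had 51.5, 56.1 and 57.4 CPM in lysates 1, 2 and 3 and 125, 53.9 and 122 CPM in IP 1, 2 and 3. Both IP 1 and IP 3 were far above every lysate and IP 2 was among the lysates, for a log2 fold change of 1.18 ± 0.063 without IP 2 (edgeR adjusted p = 2.57e-05) and 0.87 ± 0.34 with it (adjusted p = 0.220). MRPS25 (ENSG00000131368, chr3:15009611-15065339, minus strand), a protein specific to mitochondria, had 26.96, 36.02 and 60.02 CPM in lysates 1, 2 and 3 and 135, 53.4 and 122 CPM in IP 1, 2 and 3. The lysates themselves were far apart, lysate 3 being above IP 2. For MRPS25 edgeR gave 1.66 ± 0.31 without IP 2 (adjusted p = 0.00487) and 1.33 ± 0.45 with it (adjusted p = 0.180). Transcripts annotated as protein-coding held 6.85, 7.31 and 12.1 CPM of MRPS25 in the lysates and 19.7, 6.24 and 23.9 CPM in IP 1, 2 and 3. For MRPS5 they held 15.0, 21.6 and 7.78 CPM in the lysates and 27.8, 23.4 and 38.6 CPM in IP 1, 2 and 3. MRPS25 and MRPS18C had the lowest levels per length of the small subunit in the lysates, at 2.02 ± 0.827 FPKM and 2.22 ± 0.0921 FPKM. MRPS17 (ENSG00000239789, chr7:55951877-55956500, plus strand), an RNA-binding protein of the body, had 10.2, 10.3 and 10.97 CPM in lysates 1, 2 and 3 and 21.4, 13.8 and 23.3 CPM in IP 1, 2 and 3, and MRPS21 (ENSG00000266472, chr1:150293861-150308979, plus strand) had 25.1, 26.3 and 26.5 CPM in lysates 1, 2 and 3 and 50.9, 31.3 and 50.7 CPM in IP 1, 2 and 3. For MRPS17 and MRPS21 every immunoprecipitate, IP 2 included, was above every lysate. Their log2 fold changes were 1.10 ± 0.12 and 0.98 ± 0.069 without IP 2 (edgeR adjusted p = 0.000507 and 7.38e-05) and 0.89 ± 0.26 and 0.77 ± 0.24 with all 6 libraries (adjusted p = 0.148 and 0.159). DESeq2 called MRPS17 with all 6 libraries, at an adjusted p of 0.048.

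**Figure D4:**
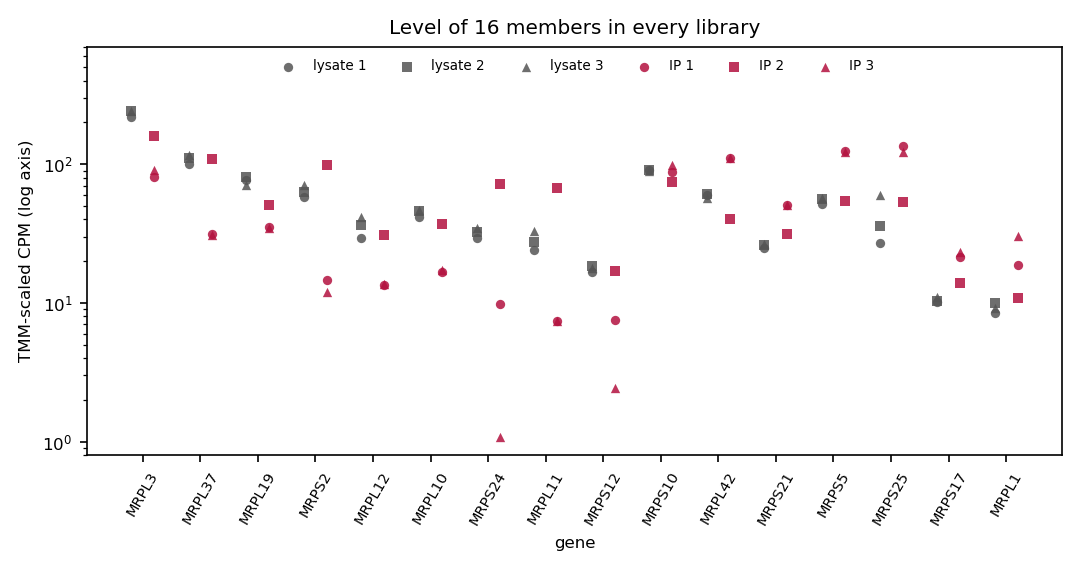
TMM-scaled CPM, on a log axis, of 16 genes of the family in each library, lysates in grey and immunoprecipitates in red, ordered by direction. IP 2 lies with or above the lysates for MRPS2, MRPL11 and MRPS24, where IP 1 and IP 3 are lowest, and below the other immunoprecipitates for MRPL42, MRPS5, MRPS25, MRPS17 and MRPL1.

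Of the 3 counterparts of bacterial S18, 2 were called lower without IP 2. MRPS18A, of the large subunit by place, had 24.6, 27.5 and 25.4 CPM in the lysates against 8.61, 31.5 and 6.18 CPM in IP 1, 2 and 3 and MRPS18C, the small-subunit counterpart proper, had 12.2, 11.7 and 11.97 CPM in the lysates against 8.89, 12.2 and 4.62 CPM in IP 1, 2 and 3. All lysates were above IP 1 and IP 3 for both and for MRPS18B, and IP 2 was above them for MRPS18A and MRPS18B and level with the highest lysate for MRPS18C. Without IP 2 edgeR called MRPS18A (−1.79 ± 0.17, adjusted p = 0.000279) and MRPS18B lower. MRPS18C missed the threshold (−0.81 ± 0.29, adjusted p = 0.0558). With IP 2 MRPS18A was at −0.74 ± 0.62 (adjusted p = 0.521). MRPS30, the other large-subunit protein by place, had 34.7, 32.7 and 36.4 CPM in the lysates against 37.4, 47.6 and 46.6 CPM in IP 1, 2 and 3. Every immunoprecipitate was above every lysate, by less than the test required (0.29 ± 0.12 without IP 2, edgeR adjusted p = 0.0805). MRPS36, the gene outside the ribosome, had 5.73, 6.85 and 5.26 CPM in the lysates against 6.26, 5.65 and 5.79 CPM in IP 1, 2 and 3, and its groups overlapped throughout (0.033 ± 0.21, edgeR adjusted p = 0.914 without IP 2).

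The transcripts behind the counts differed in type as well as in number, which was described and not tested. In the lysates 90.1, 90.2 and 89.4% of the family's transcript counts were assigned to transcripts annotated as protein-coding. The share was 74.98, 90.6 and 78.3% in IP 1, 2 and 3, so IP 1 and IP 3 were below every lysate and IP 2 above. Over all 14870 tested genes with such a transcript it was 90.6, 89.97 and 90.01% in the lysates and 85.002, 89.8 and 84.8% in the immunoprecipitates. For the small subunit the share was 85.6, 83.9 and 82.0% in the lysates and 63.9, 86.3 and 67.2% in IP 1, 2 and 3, and for the large subunit 92.9, 94.0 and 94.0% against 86.2, 93.3 and 89.5%. The rest were mainly retained introns (3.67 to 4.12% in the lysates, and 10.8 and 7.84% in IP 1 and IP 3), targets of nonsense-mediated decay (3.56 to 3.94%, and 8.32 and 7.12%) and processed transcripts (2.46 to 2.57%, and 5.93 and 6.75%). The median share over single genes was 97.4 to 98.3% in the lysates and 92.6 and 96.6% in IP 1 and IP 3. Over small-subunit genes this median was 95.9, 97.5 and 96.8% in the lysates and 93.3, 98.3 and 88.7% in IP 1, 2 and 3. MRPS5 and MRPS25, both higher in IP 1 and IP 3, weigh on the pooled small-subunit share. In the lysates their coding shares were already 29.2, 38.5 and 13.5%, and 25.4, 20.3 and 20.2%. The pooled share without them was not computed. Assigning counts to transcripts of one gene rests on few distinguishing reads, and the libraries had 469 transcripts with counts over the 78 genes.

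The coding share of MRPS2 differed most. Its coding transcript ENST00000241600 took 95.9, 83.02 and 96.8% of the gene's transcript counts in the lysates and 0, 96.5 and 0% in IP 1, 2 and 3. It had 4236, 4228 and 6010 counts in the lysates, 5069 in IP 2 and none in IP 1 and IP 3, which allows a share of up to 0.324% and 0.395% there (3 counts of the gene's transcript counts; counting error only). In IP 3 nearly all MRPS2 counts lay instead in ENST00000472852, a target of nonsense-mediated decay. For MRPS6, a protein of the platform, the coding share was 88.9, 92.4 and 89.4% in the lysates and 29.1, 89.3 and 0% in IP 1, 2 and 3, where the 0 in IP 3 allows up to 0.231%. Its retained-intron transcript ENST00000483977 had 98, 105 and 122 counts in the lysates and 965, 110 and 1157 counts in IP 1, 2 and 3. As a gene, MRPS6 was nearly level, with 19.5, 23.1 and 20.9 CPM in the lysates against 23.6, 29.5 and 20.4 CPM in IP 1, 2 and 3, and no difference of the gene passed the test (edgeR adjusted p = 0.677 without IP 2). SLC5A3, an inositol transporter gene, lies within MRPS6 on the same strand, and reads could be assigned to either. The coding share of MRPL32, which a protease must cleave before it enters the ribosome, was 72.4, 71.8 and 73.3% in the lysates and 26.9, 62.1 and 23.5% in IP 1, 2 and 3, and that of MRPL40 was 81.1, 78.6 and 78.4% in the lysates and 47.3, 76.1 and 19.5% in IP 1, 2 and 3. In both, all immunoprecipitates were below every lysate, IP 2 the nearest. MRPL32 and MRPL40 had 23.6, 27.2 and 27.8 CPM in the lysates against 25.2, 38.1 and 25.6 CPM in IP 1, 2 and 3, and 18.2, 16.9 and 17.4 CPM in the lysates against 12.98, 22.8 and 10.5 CPM in IP 1, 2 and 3, and edgeR called MRPL40 lower without IP 2 (−0.56 ± 0.15, adjusted p = 0.0194). The largest rises of the coding share were in MRPL48, of the central protuberance (51.5, 45.3 and 51.95% in the lysates and 91.5, 51.1 and 100% in IP 1, 2 and 3), and MRPL42 (65.7, 99.8 and 99.3% in the lysates and 99.3, 98.5 and 100% in IP 1, 2 and 3), and in MRPL42 lysate 1 alone was low.

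**Figure D5:**
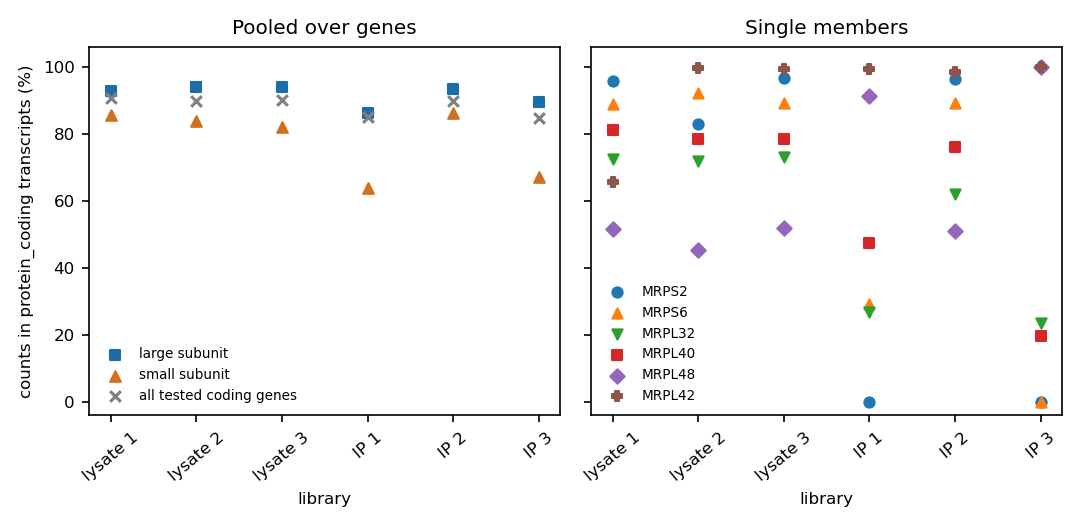
Percent of transcript counts assigned to transcripts annotated as protein-coding in each library, pooled over the large subunit, the small subunit and all tested coding genes (left), and for 6 single genes (right). IP 1 and IP 3 lie lowest in the pooled shares, and IP 2 lies with the lysates; MRPS2 is at 0% in IP 1 and IP 3, and MRPL48 runs the other way.

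When only protein-coding transcripts were counted, the family still sat lower in IP 1 and IP 3. Summed coding CPM was 2274, 2449 and 2479 in the lysates and 1473, 2751 and 1603 in IP 1, 2 and 3, and 53 of 78 genes were below every lysate in both IP 1 and IP 3 while 8 were above. Of 15145 tested genes with a protein-coding transcript, 48% were below and 24.6% above by the same count. All 15145 summed to 896460, 929131 and 919421 coding CPM in the lysates and 729732, 881803 and 736338 in IP 1, 2 and 3. Their median log2 ratio to the lysate mean was −0.30 in IP 1 and −0.39 in IP 3. It was −0.91 and −0.86 over the large and −0.50 and −0.34 over the small subunit. Of the large subunit 37 of 49 genes were below and 3 above, and of the small subunit 16 of 29 and 5.

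Neighbouring genes that start back to back with a member were called in its direction in some pairs and not in others. A coding gene on the other strand starts within 1000 bases of 25 of the 78. MRPS11 and MRPL46 are such a pair, 64 bases apart, and edgeR gave −1.68 ± 0.13 for MRPS11 (adjusted p = 0.000116) and 0.25 ± 0.23 for MRPL46 (adjusted p = 0.420) without IP 2. Of the 23 pairs whose partner is no member, 6 were both called lower without IP 2 and 0 both higher. In 5 pairs the ribosomal gene alone was called, and it was lower. The partner alone was called lower in 3 and higher in 4, and in 2 neither was called. Over all tested genes 27.2% were called lower and 23.9% higher. Whether partners follow members more often than unrelated genes do was not tested. In 2 pairs the ribosomal gene was called lower and its partner higher, MRPL13 with MTBP and MRPL30 with MITD1, and in 1 pair, MRPL52 with the amino acid transporter gene SLC7A7, the ribosomal gene was higher and its partner lower. MITD1 had 23.7, 25.4 and 23.6 CPM in the lysates and 60.6, 18.1 and 64.3 CPM in IP 1, 2 and 3, and its log2 fold change was 1.38 without IP 2 against −0.74 for MRPL30. These pairs were named after their values were seen. Of the family, 32 genes overlap a gene on the other strand and 19 one on their own (MRPS17 overlaps NIPSNAP2), and it is not stated if reads were counted by strand.

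Other genes of mitochondrial translation were taken from fixed lists, none of which had a gene called with all 6 libraries in edgeR. Without IP 2 edgeR called 23.9% of all tested genes higher and 27.2% lower, with a median log2 fold change of −0.063. With all 6 libraries the median of all tested genes was 0.056. The 5 mitoribosome proteins of other names had 3 called higher and 1 lower without IP 2, with a median log2 fold change of 0.25, against 0.42 with all 6 libraries. GADD45GIP1 had 10.9, 13.5 and 12.5 CPM in the lysates against 21.1, 23.3 and 19.01 CPM in IP 1, 2 and 3, and PTCD3, a protein of the small subunit that binds RNA, had 66.7, 75.98 and 70.6 CPM in the lysates against 121, 99.4 and 105 CPM in IP 1, 2 and 3. In both, every immunoprecipitate was above every lysate (0.72 ± 0.14 and 0.68 ± 0.08 without IP 2, edgeR adjusted p = 0.00563 and 0.000668). DAP3, a GTP-binding protein of the small subunit, had 98.99, 104 and 105 CPM in the lysates against 111, 169 and 130.5 CPM in IP 1, 2 and 3, also without overlap. Without IP 2, 8 of 26 assembly factors (30.8%) were called higher and 8 lower, near the shares of all tested genes. The median of these 26 was 0.24, and 0.17 with all 6 libraries. The lowest p of these with all 6 libraries was that of the pseudouridine synthase RPUSD4, which had 16.5, 19.7 and 18.1 CPM in the lysates against 39.9, 37.3 and 39.9 CPM in IP 1, 2 and 3. The assembly GTPase GTPBP10 and METTL17 were above every lysate in all immunoprecipitates too, with 17.97, 21.1 and 19.1 CPM in the lysates against 51.4, 23.9 and 52.4 CPM in IP 1, 2 and 3, and 30.1, 31.9 and 33.9 CPM in the lysates against 42.5, 53.9 and 49.2 CPM in IP 1, 2 and 3.

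Translation factors lay mainly above 0, with 10 of 19 called higher and 4 lower without IP 2 and a median of 0.55, which was also 0.55 with all 6 libraries. That is 52.6% higher and 21.1% lower, beside 23.9% and 27.2% of all tested genes. The initiation factor MTIF2 had 47.2, 51.4 and 47.1 CPM in the lysates against 119, 60.95 and 120.3 CPM in IP 1, 2 and 3, the recycling factor MRRF had 34.6, 31.1 and 33.97 CPM in the lysates against 84.5, 39.2 and 78.2 CPM in IP 1, 2 and 3, and the release factor MTRF1 had 7.45, 6.48 and 8.33 CPM in the lysates against 30.5, 7.24 and 34.1 CPM in IP 1, 2 and 3. For MTIF2 and MRRF all immunoprecipitates were above all lysates, IP 2 by little, and for MTRF1 IP 2 lay among the lysates. The 20 aminoacyl-tRNA synthetases and amidotransferase subunits had 4 called higher (20%) and 10 lower (50%), with a median of −0.53, and of −0.044 with all 6 libraries. WARS2 had 24.5, 29.1 and 23.03 CPM in the lysates against 11.8, 14.5 and 10.1 CPM in IP 1, 2 and 3 and MARS2 had 8.95, 11.7 and 10.003 CPM in the lysates against 21.3, 15.3 and 23.6 CPM in IP 1, 2 and 3, and GATC had 61.7, 62.3 and 65.9 CPM in the lysates against 39.8, 46.8 and 39.4 CPM in IP 1, 2 and 3; each group was on one side of the other. Both ribosomal RNAs of the mitochondrial ribosome were called higher without IP 2. MT-RNR1, the small-subunit RNA, had 605, 615 and 603 CPM in the lysates against 1515, 931 and 1458 CPM in IP 1, 2 and 3, and MT-RNR2, the large-subunit RNA, had 12565, 14369 and 13136 CPM in the lysates against 20894, 17719.7 and 24019 CPM in IP 1, 2 and 3. Their log2 fold changes were 1.30 ± 0.039 and 0.76 ± 0.073 without IP 2 (edgeR adjusted p = 6.72e-06 and 0.000276). With IP 2 they were 1.10 ± 0.25 and 0.64 ± 0.27 (adjusted p = 0.103 and 0.234). Without IP 2 the RNA and most protein genes of the ribosome thus lay on opposite sides. The libraries were made from RNA selected by oligo(dT). Genes of the cytosolic ribosome, which is built in the nucleolus, had 49 of 83 called lower (59.0%) and 21 higher (25.3%) without IP 2, and a median of −0.57 without it and −0.27 with it. Over all tested genes 27.2% were called lower and 23.9% higher. The difference of the cytosolic from the mitochondrial ribosomal genes was not tested.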

How the data were processed

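The samples are 6 HK2 libraries, split by title into 3 lysates and 3 anti-FLAG immunoprecipitates; the treatment labels number the plasmid across samples and were not used. Per the labels' protocols, RNA was enriched by oligo(dT) and the kit kept strand through dUTP. Tools in the submitters' processing notes are cutadapt 1.9, HISAT2 2.2.1, StringTie 2.1.6, DESeq2 and edgeR, with the build GRCh38.p14; their roles are not stated there. The tests used the deposited counts, which are integers for each gene and transcript. FPKM, deposited beside them, was kept for comparing levels between genes. Totals were 54363555 to 92948069 counts.

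Counts were tested over all genes with edgeR 4.0.16 (R 4.3.3; quasi-likelihood, TMM, default expression filter, Benjamini-Hochberg adjustment, threshold 0.05), with DESeq2 1.42.0 and limma 3.58.1 (on log2 FPKM plus 1 or 0.1) as alternatives. SE is the log2 fold change over the square root of F. Ratios to the lysate mean add 0.5 CPM. The code was tested on simulated data. Shares of transcript counts pool all transcripts of the genes. The genes, lists and tests were chosen with earlier results of these data known. Single genes were named by a rule: the 4 highest and 2 lowest per subunit by lysate FPKM, the 8 lowest p-values in each direction with all 6 libraries, the 6 largest rises and 6 largest falls without IP 2 at a mean of at least 10 CPM, genes with places or roles other than their name, the 4 largest falls and 2 largest rises of the coding share (at least 100 transcript counts per library), and up to 3 per other list by p.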

Additional observations from a re-analysis of the deposited data

How the results depend on the processing

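With all 6 libraries, 0 genes were called higher and 0 lower under RLE, upper quartile or library-total scaling, both other expression filters, limma on FPKM and without any 1 library other than IP 2; DESeq2 called 1 higher and 2 lower. Leaving out 1 library gave 0 to 10 called higher, 0 to 41 called lower, a median over the family of −0.58 to −0.047 and a difference of large minus small subunit of −0.48 to −0.024, the first of each median and the last of each count without IP 2. DESeq2 without IP 2, added after seeing the data, gave 10 higher, 44 lower and a difference of −0.48. No pairing by replicate number was seen: deviations from the group mean of same-numbered lysates and immunoprecipitates correlated at −0.011, −0.054 and 0.010. IP 2 stands far from IP 1 and IP 3 and weighs on these deviations, so this check cannot exclude pairing. With the replicate block 0 genes were called higher and 0 lower, with a median of −0.34 and a difference of large minus small subunit of −0.34. That difference was −0.30 and −0.32 in limma on log2(FPKM + 1) and log2(FPKM + 0.1). Library totals as the only scaling moved the median of all tested genes from 0.056 to 0.19 and that of the family to −0.064. Of the log2 fold changes of named genes, 476 values under other settings kept direction and side of the threshold, 51 passed it newly, and 33 changed sign, all of genes near 0 or far apart between libraries, whose cause was not tested. MRPL11 was 0.015 (RLE), 0.028 (library totals), 0.024 (at least 1 CPM in 3 libraries), and with 1 library left out −1.91 (IP 2) to 0.39 (IP 1 or IP 3). MRPL18 was 0.0015 (library totals). With 1 library left out, MRPL40 ran from −0.56 (IP 2) to 0.016 (IP 3), and MRPL32 from −0.031 (IP 2; −0.030 in DESeq2) to 0.26 (IP 1). MRPL58 was −0.18 and −0.18 without IP 2 in edgeR and DESeq2. MRPS10 was 0.031 (upper quartile), 0.089 (library totals), 0.036 (1 CPM), 0.076 and 0.078 (limma with 1 and 0.1 added), and 0.057 and 0.058 without IP 2 in edgeR and DESeq2. MRPS24 ran from −2.56 without IP 2 to 0.33 without IP 3, with 0.17 without IP 1. MRPS35 was −0.014 without lysate 3 and −0.086 without IP 3. MRPS36 was 0.043 (RLE), 0.074 (upper quartile), 0.13 (library totals), 0.079 (1 CPM), 0.010 (DESeq2), 0.11 and 0.14 (limma), −0.11 without lysate 3 to 0.080 without lysate 2, and 0.033 and 0.033 without IP 2 in edgeR and DESeq2. Depth limits the shares of single transcripts: MRPS2 had 925 and 760 transcript counts in IP 1 and IP 3.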

Other observations

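The table also held 30 pseudogenes, antisense genes and divergent genes named after the family, 23 of them pseudogenes, of which 8 passed the expression filter. MRPL20-DT, a long noncoding RNA that starts divergently from MRPL20, had 3.63, 3.84 and 3.66 CPM in the lysates against 29.0, 2.46 and 26.8 CPM in IP 1, 2 and 3. Both IP 1 and IP 3 were far above every lysate and IP 2 below all of them, and its log2 fold change was 2.92 ± 0.13 without IP 2 (edgeR adjusted p = 1.37e-05) and 2.39 ± 0.84 with all 6 libraries (adjusted p = 0.190). MRPL20 itself was −0.16 ± 0.14 without IP 2 (edgeR adjusted p = 0.383). MRPL20-AS1, on the antisense strand, had 23.6, 26.8 and 28.3 CPM in the lysates against 17.6, 15.5 and 14.3 CPM in IP 1, 2 and 3, with all immunoprecipitates below all lysates. MRPS31P5 and MRPL45P2, transcribed pseudogenes that resemble their parent genes in sequence so that reads may be split between the copies, had 5.54, 4.97 and 4.38 CPM in the lysates against 24.7, 3.89 and 8.42 CPM in IP 1, 2 and 3, and 2.99, 2.17 and 2.88 CPM in the lysates against 4.22, 2.42 and 10.1 CPM in IP 1, 2 and 3. Both were called higher without IP 2 (edgeR adjusted p = 0.0152 and 0.0268), while MRPS31 and MRPL45 were −0.35 ± 0.30 and −0.88 ± 0.088 (adjusted p = 0.385 and 0.000321). These genes were named after their values were seen.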
